A study of Mus musculus with 9 samples.

Results

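The expression of 9 genes of glutamate and glutamine transport and metabolism was examined in cultured mouse astrocytes and SB28 glioblastoma (GBM) cells. The genes were chosen by name and are Slc1a2, Slc1a3, Slc1a4, Slc1a5, Glul, Glud1, Slc7a11, Slc38a1 and Slc38a2, 9 of the 49315 genes in the count table. All 9 were found and measured. Astrocytes were primary neonatal cells of C57BL6 mito::mKate2 mice, which express a mitochondrial form of the red fluorescent protein mKate2 from the CAG promoter, active in most cell types. SB28 is a GFP+ mouse GBM line of C57BL6 background. Both were otherwise untreated and were grown together for 2 days at a ratio of 1 to 1. The medium, per the deposited description, was DMEM F12 with 2% FBS, 5% N2 supplement and 20 ng/ml of EGF and FGF. The study's methods instead give 5% FBS and 1% N2 supplement for it. Sorting then gave mKate2- SB28 cells, mKate2+ SB28 cells, which carried the mitochondrial label of the astrocytes, and the donor astrocytes. RNA-seq was done on 3 libraries of each population, from 3 co-cultures per the study's methods. There was no SB28 culture without astrocytes among the 9 libraries, so every tumor cell measured had been in co-culture. Total counts ran from 24454561 to 35135662 per astrocyte library, from 27187348 to 35891589 per mKate2- library and from 34175016 to 39287841 per mKate2+ library.

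The astrocyte label was checked against 10 astrocyte markers. Sox9 was at 173 to 181 CPM (counts scaled by the total of the library) and Aldh1l1, a folate enzyme typical of astrocytes, at 111 to 172 CPM in the 3 astrocyte libraries. Sox9 was also abundant in SB28 cells, at 75.3 to 111 CPM, whereas Aldh1l1 was at 4.92 to 8.48 CPM there. In the astrocyte libraries, in contrast, the connexin gene Gjb6 was at 0 counts in all 3 and Ntsr2 reached 0.598 CPM at most. S100b reached 2.16 CPM at most in these, and Gfap was between 3.42 and 19.4 CPM. The progenitor transcription factors Olig1 (241 to 541 CPM) and Olig2 (155 to 268 CPM) were abundant. Among other oligodendrocyte lineage markers, the progenitor genes Pdgfra (10.3 to 23.7 CPM) and Cspg4 (19.3 to 26.9 CPM) were present in these libraries, while Sox10 was at 0.0611 CPM or less and Mbp and Mog, genes of myelin, at 1.22 CPM or less. Of the microglia markers, Tmem119 was at 24.8 to 39.1 CPM in astrocytes and 47.3 to 61.1 CPM in SB28 cells, and the others were at 2.54 CPM or less in all 9 libraries. The 7 neuronal markers summed to 53.5, 98.9 and 88.5 CPM in astrocyte replicates 1 to 3 and to 38.6 to 48.9 CPM in SB28 cells. Most of this came from Map2 (28.0 to 44.2 CPM in astrocytes), Stmn2 (11.5 to 43.4 CPM) and Tubb3 (9.45 to 13.2 CPM), whereas Rbfox3 was at 0 in all 9 libraries. The part of other cell types in the levels below was not tested. Of the fibroblast and mural cell markers, the collagen gene Col1a2 was at 838 to 1110 CPM in astrocytes and at 386 to 590 CPM in SB28 cells. Col1a1 was at 151 to 325 CPM in astrocytes and 105 to 181 CPM in SB28 cells. Pdgfrb was at 57.7 to 60.9 CPM in astrocytes and 42 to 60 CPM in SB28 cells. Dcn, Lum and Rgs5 were at 2.73 CPM or less in all 9 libraries.

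Among the libraries, 2 stood apart. Astrocyte replicate 3 had a summed level of the 10 astrocyte markers of 978 CPM, against 458 and 423 CPM in replicates 1 and 2, with Aldoc at 362 against 55.6 and 33.8 CPM, Aqp4 at 59.7 against 5.64 and 6.82 CPM, and Foxj1, a transcription factor of ciliated ependyma, at 75.9 against 8.91 and 6.73 CPM. The other ependyma markers were near 0, as Ccdc153 was at 0.655 CPM and Tmem212 at 0 in replicate 3, against 0 for Ccdc153 and 0.245 and 0.122 CPM for Tmem212 in replicates 1 and 2. In mKate2+ replicate 2, the deviation of genes from the mean of the other SB28 libraries went with gene length. Its rank correlation with exonic length was -0.473 over 11840 genes, whereas the other 5 SB28 libraries lay between 0.094 and 0.312. Where leaving out either library moved one of the 9 genes across a threshold, the value without it is given.

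Glutamate is the main excitatory transmitter of the brain, and astrocytes clear it from the extracellular space with the sodium-coupled transporters of the Slc1 family, chiefly Slc1a2 (GLT-1) and Slc1a3 (GLAST). In astrocytes, glutamine synthetase (Glul) converts it to glutamine, which is released and taken up by neurons through the Slc38 family. Proliferating cells, among them many tumor lines, draw on glutamine as a source of nitrogen and carbon. They import it through transporters such as Slc1a5, convert it to glutamate, feed it into the tricarboxylic acid cycle and exchange glutamate for cystine through Slc7a11 (xCT).

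**Figure D1:**
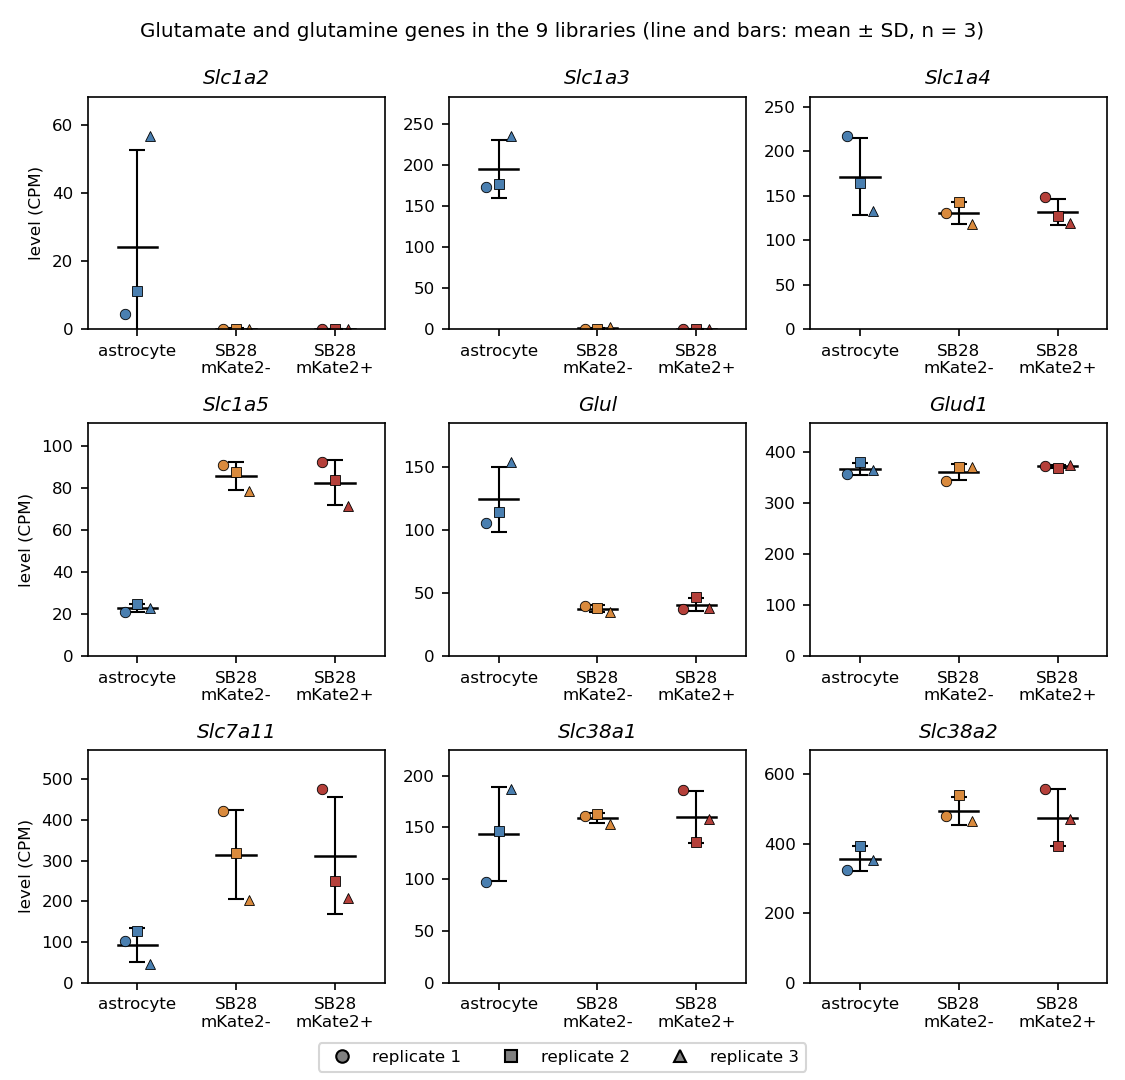
Level of the 9 genes in CPM (y axis, linear from 0, own scale per gene) in astrocytes, mKate2- SB28 cells and mKate2+ SB28 cells (x axis). Symbols are single libraries and lines with bars are the mean ± SD (n = 3, the lower bar of Slc1a2 in astrocytes being clipped at 0). Slc1a2, Slc1a3 and Glul were highest in astrocytes, Slc1a5 and Slc7a11 were highest in SB28 cells, and the mKate2- and mKate2+ libraries overlapped for all 9 genes.

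The first comparisons asked how the tumor cells differed from their mitochondria donors in handling glutamate. Of the 9 genes, 3 were lower in both SB28 populations than in astrocytes (Slc1a2, Slc1a3 and Glul) and 2 were higher in both (Slc1a5 and Slc7a11), where a call required an absolute log2 fold change over 1 with adjusted P under 0.05 in edgeR's quasi-likelihood test. Leaving out astrocyte replicate 3 or mKate2+ replicate 2 left the call of each of the 9 genes as it was. Over all 13356 genes tested for mKate2- cells, 22.4% were lower and 11.5% higher by this rule, and over the 13342 genes tested for mKate2+ cells, 22.8% were lower and 12.2% higher. The remaining 4 genes, Slc1a4, Glud1, Slc38a1 and Slc38a2, did not meet the thresholds in either comparison. By the P value alone, 3 were higher and 3 lower in each, where 29.3% of all genes were higher and 33.8% lower for mKate2- cells and 28.0% and 32.1% for mKate2+ cells. These counts depended on single libraries. Without astrocyte replicate 3, for example, Slc1a4 also passed, as lower, in both comparisons and Slc38a2 no longer passed for mKate2+ cells. Likewise 3 genes were higher and 3 lower with no overlap between the groups' libraries in each comparison, which held for 33.8% and 37.3% of all genes for mKate2- cells and for 29.4% and 37.7% for mKate2+ cells. For mKate2+ cells the third higher gene, Slc38a2, was separated by only 394.4 against 394.3 CPM. Both comparisons used the same 3 astrocyte libraries and are therefore not independent. In such bulk samples, fewer cells of a type and less RNA per cell cannot be told apart.

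The transporter and enzyme with which astrocytes clear glutamate were among the genes lower in tumor cells. Slc1a3 (ENSMUSG00000005360, chromosome 15 of GRCm38 from 8634124 to 8710764) was at 173, 177 and 236 CPM in astrocyte replicates 1 to 3. It was at 1.10, 0.947 and 2.38 CPM in mKate2- replicates 1 to 3 and at 0.832, 0.560 and 1.11 CPM in mKate2+ replicates 1 to 3. Every astrocyte library was thus far above every tumor library, and the tumor libraries held 22 to 71 counts each. The level was 131-fold lower in mKate2- cells (log2 fold change -7.04, standard error 0.35, adjusted p = 8.44e-06) and 223-fold lower in mKate2+ cells (log2 fold change -7.80, standard error 0.27, adjusted p = 5.04e-06). The highest tumor library for Slc1a3, mKate2- replicate 3, was also the highest for Olig1 (6.43 CPM, against 1.12 to 2.75 CPM in the other 5) and Olig2 (2.95 against 0.585 to 1.73 CPM), genes abundant in the astrocytes. Other such genes were mixed. Gfap (0.268 CPM, against 0.0764 to 0.194 CPM in the other 5), Aqp4 (0.402 against 0.0255 to 0.380 CPM) and Gfpt2 (0.302 against 0.0557 to 0.110 CPM) were also highest there. Slc1a2, in contrast, had 0 counts in this library, Foxj1 was at 0.101 CPM against 0.111 to 0.258 CPM in the other 5, and the 10 astrocyte markers, most of whose sum was Sox9, came to 103 CPM against 90.0 to 129 CPM. Whether astrocyte RNA in the sorted tumor cells contributed to these counts was not tested.

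Slc1a2 (ENSMUSG00000005089, chromosome 2 from 102658659 to 102790784), the major glutamate transporter of the mature forebrain, was much less abundant than Slc1a3 in these neonatal astrocytes. Its level was 4.46, 11.3 and 56.8 CPM in astrocyte replicates 1 to 3, so that replicate 3 held most of the counts of the group. In SB28 cells it had 7, 7 and 0 counts in mKate2- replicates 1 to 3 and 5, 0 and 5 counts in mKate2+ replicates 1 to 3. This was at most 0.258 CPM, and a count of 0 allows up to 0.101 CPM in mKate2- replicate 3 and 0.0764 CPM in mKate2+ replicate 2 by counting error alone. That gave a log2 fold change of -7.26 (standard error 1.23, 95% interval -10.12 to -4.40, adjusted p = 0.00141) for mKate2- cells and -7.90 (standard error 1.28, 95% interval -10.87 to -4.93, adjusted p = 0.00134) for mKate2+ cells. Without astrocyte replicate 3 the value was -5.66 (adjusted p = 0.000245) and -6.31 (adjusted p = 0.000431), and without mKate2+ replicate 2 the latter comparison gave -7.31 (adjusted p = 0.00716). Exons of Slc1a2 share 189 bases with the antisense gene Gm13872, and no source used here says whether reads were counted by strand.

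Glul (ENSMUSG00000026473, chromosome 1 from 153899944 to 153909723), which encodes glutamine synthetase, was at 105, 114 and 154 CPM in astrocyte replicates 1 to 3. mKate2- replicates 1 to 3 had 39.9, 38.2 and 34.7 CPM and mKate2+ replicates 1 to 3 had 37.0, 46.5 and 38.4 CPM. The groups did not overlap, but unlike Slc1a2 and Slc1a3 the gene was clearly expressed in tumor cells. It was 3.27-fold lower in mKate2- cells (log2 fold change -1.71, standard error 0.15, adjusted p = 6.43e-05) and 2.89-fold lower in mKate2+ cells (log2 fold change -1.53, standard error 0.19, adjusted p = 0.000344). Its exons share 116 bases with Teddm2 on the opposite strand and hold the microRNA gene Mir8114.

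Conversely, the glutamine importer and the cystine-glutamate exchanger were higher in tumor cells. Slc1a5 (ENSMUSG00000001918, chromosome 7 from 16781340 to 16798274), which encodes the neutral amino acid transporter ASCT2, was at 20.98, 24.9 and 22.8 CPM in astrocyte replicates 1 to 3. It was at 91.0, 87.5 and 78.3 CPM in mKate2- replicates 1 to 3 and at 92.1, 83.9 and 71.2 CPM in mKate2+ replicates 1 to 3. No tumor library came near the astrocyte range. Slc1a5 was 3.77-fold higher in mKate2- cells (log2 fold change 1.92, standard error 0.11, adjusted p = 1.30e-05) and 3.79-fold higher in mKate2+ cells (log2 fold change 1.92, standard error 0.15, adjusted p = 4.38e-05).

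Slc7a11 (ENSMUSG00000027737, chromosome 3 from 49892526 to 50443614), the subunit of xCT that carries out the exchange, varied most between replicates among the genes abundant in tumor cells. It was at 102, 128 and 46.9 CPM in astrocyte replicates 1 to 3, at 422, 318 and 203 CPM in mKate2- replicates 1 to 3 and at 476, 249 and 209 CPM in mKate2+ replicates 1 to 3. Replicate 3 was the lowest library of each population, and the highest SB28 library had 2.35 times the level of the lowest. The tumor libraries nonetheless lay above all astrocyte libraries. Between populations, Slc7a11 was 3.44-fold higher in mKate2- cells (log2 fold change 1.78, standard error 0.40, adjusted p = 0.00525) and 3.54-fold higher in mKate2+ cells (log2 fold change 1.82, standard error 0.43, adjusted p = 0.00755). Without astrocyte replicate 3 the log2 fold changes were 1.46 (adjusted p = 0.00250) and 1.48 (adjusted p = 0.00848).

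The partner of Slc7a11 in xCT, the heavy chain Slc3a2, which also serves other amino acid exchangers, was at 206, 184 and 244 CPM in astrocyte replicates 1 to 3 and between 279 and 413 CPM in the 6 tumor libraries. The log2 fold change of Slc3a2, at 0.65 (standard error 0.15, adjusted p = 0.00555) in mKate2- and 0.78 (standard error 0.18, adjusted p = 0.00717) in mKate2+ cells, was below the fold threshold. Gclc and Gclm, the catalytic and modifier subunits of glutamate-cysteine ligase, use glutamate and imported cysteine to make glutathione. Their log2 fold changes were -0.24 (adjusted p = 0.483) and 0.31 (adjusted p = 0.0624) in mKate2- cells and -0.27 (adjusted p = 0.465) and 0.39 (adjusted p = 0.0641) in mKate2+ cells. For Gclc the astrocyte libraries were spread widely, at 57.5, 86.9 and 145 CPM, around a tumor range of 62.8 to 91.8 CPM, and without astrocyte replicate 3 its log2 fold changes had the opposite sign, at 0.16 and 0.12.

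**Figure D2:**
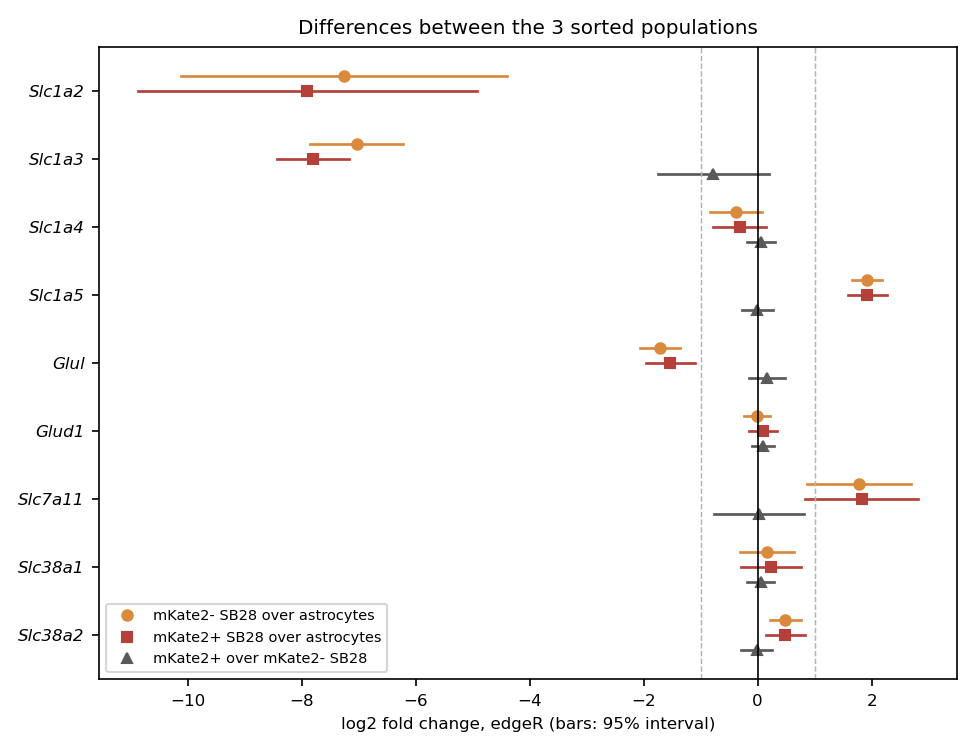
Log2 fold change of each gene (x axis, edgeR, with 95% interval) between the sorted populations, one row per gene (y axis) and one symbol per comparison, with dashed lines at an absolute value of 1. Slc1a2, Slc1a3 and Glul lay left of the lower line and Slc1a5 and Slc7a11 right of the upper one in both comparisons with astrocytes, whereas all 8 intervals for mKate2+ over mKate2- SB28 cells included 0 (Slc1a2 was too low to be tested).

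Promoter sequence is shown for Slc7a11 and for 2 other genes described here, Got1 and Asns, that were higher in tumor cells and hold the same short motif. The motif is the C/EBP-ATF response element, searched as TGATGNAA on both strands in the 250 bases before the transcription start. It is the kind of element through which the transcription factor ATF4 is known to act on amino acid genes. The 150 bases before each start, from RefSeq promoters of GRCm38.p6, are written 5′ to 3′ on the strand of the gene with the matches in capitals. All 3 genes lie on the minus strand, Slc7a11 at chr3:50443614-50443763, Got1 at chr19:43524606-43524755 and Asns at chr6:7693210-7693359.
Slc7a11: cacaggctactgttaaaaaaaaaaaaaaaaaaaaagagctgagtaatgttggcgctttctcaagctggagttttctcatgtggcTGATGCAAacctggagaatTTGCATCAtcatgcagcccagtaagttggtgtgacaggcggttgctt
Got1: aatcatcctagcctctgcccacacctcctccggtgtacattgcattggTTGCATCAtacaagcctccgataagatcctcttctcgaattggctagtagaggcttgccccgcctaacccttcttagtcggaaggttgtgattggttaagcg
Asns: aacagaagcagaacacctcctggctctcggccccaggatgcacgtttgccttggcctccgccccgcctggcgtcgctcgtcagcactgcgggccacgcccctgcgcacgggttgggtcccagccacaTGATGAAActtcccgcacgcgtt
In Slc7a11 there are 2 matches, which begin 66 and 47 bases before the start, face each other and do not overlap. The match of Got1 begins 102 and that of Asns 23 bases before the start. GENCODE M21, used for the other positions, puts the start of Asns further upstream, at 7693254. By that annotation the match of Asns lies inside the gene. Such a match was present in 3.45% of 32851 promoters of this length, in 1 of the 7 genes of the group that have a promoter in the table, and in 4 of 50 other genes of the pathway (Asns, Pycr1, Slc7a7 and Got1). Of these, Slc7a7 was lower in tumor cells and Pycr1 was not called. The antioxidant response element TGACNNNGC was found in 10.2% of promoters and, within the group, in Slc38a2 alone, and in 9 of the 50 other genes. An E-box, CACGTG, was found in 6.02% and the palindrome of nuclear factor I (TGGC and GCCA with 5 bases between) in 0.703%. Neither was found in the 7 genes, and they were found in 6 and 1 of the 50 others. A match describes letters only, and binding was not measured.

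Of the 4 genes that did not meet the thresholds, Glud1 (ENSMUSG00000021794, chromosome 14 from 34310727 to 34345265) was the most even. This gene encodes glutamate dehydrogenase, the mitochondrial enzyme that turns glutamate into alpha-ketoglutarate. A processed pseudogene, Glud-ps, is annotated, and reads matching both would not have been counted as unique, so the level is uncertain to that extent. Glud1 was at 356, 379.5 and 364 CPM in astrocyte replicates 1 to 3, at 342, 369 and 370.0 CPM in mKate2- replicates 1 to 3 and at 372, 368 and 375 CPM in mKate2+ replicates 1 to 3. The 3 populations overlapped. Its log2 fold change against astrocytes was -0.01 (95% interval -0.23 to 0.21, adjusted p = 0.940) for mKate2- cells and 0.10 (95% interval -0.16 to 0.35, adjusted p = 0.466) for mKate2+ cells.

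Slc38a2 (ENSMUSG00000022462, chromosome 15 from 96687392 to 96699730), the amino acid-responsive glutamine transporter SNAT2, was at 323, 394 and 353 CPM in astrocyte replicates 1 to 3. The levels were 479, 541 and 466 CPM in mKate2- and 558, 394 and 471 CPM in mKate2+ replicates 1 to 3. mKate2+ replicate 2 was level with the highest astrocyte library and the other tumor libraries were above it. The log2 fold changes of 0.49 (standard error 0.12, adjusted p = 0.00736) and 0.48 (standard error 0.15, adjusted p = 0.0230) passed the P value and not the fold threshold. For mKate2+ cells it no longer passed without astrocyte replicate 1 or 3 (adjusted p = 0.0651 and 0.0535), without mKate2+ replicate 1 or 3 (adjusted p = 0.0965 and 0.0620) or with the replicate number as a block (adjusted p = 0.0534).

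Slc38a1 (ENSMUSG00000023169, chromosome 15 from 96571418 to 96642913), which encodes the related transporter SNAT1, was at 96.7, 146 and 187 CPM in astrocyte replicates 1 to 3. The tumor libraries fell inside this range, with 161, 162 and 154 CPM in mKate2- and 186, 136 and 158 CPM in mKate2+ replicates 1 to 3. The log2 fold changes were 0.17 (95% interval -0.30 to 0.65, adjusted p = 0.489) and 0.23 (95% interval -0.30 to 0.76, adjusted p = 0.398), and 0.40 (adjusted p = 0.0599) and 0.45 (adjusted p = 0.0911) without astrocyte replicate 3. With the gene length trend removed, the value for mKate2+ cells was 0.48 (adjusted p = 0.0188), past the P value and below the fold threshold. Slc1a4 (ENSMUSG00000020142, chromosome 11 from 20302180 to 20332713), which encodes ASCT1, a transporter of serine, alanine and other neutral amino acids, was at 218, 165 and 133 CPM in astrocyte replicates 1 to 3. It was at 131, 143 and 119 CPM in mKate2- and at 148, 127 and 119 CPM in mKate2+ replicates 1 to 3. These ranges overlapped as well, and the log2 fold changes were -0.38 (95% interval -0.83 to 0.07, adjusted p = 0.120) and -0.31 (95% interval -0.78 to 0.15, adjusted p = 0.208). Without astrocyte replicate 3 they were -0.54 (adjusted p = 0.0128) and -0.49 (adjusted p = 0.0408), past the P value and below the fold threshold, and without astrocyte replicate 1 they were -0.16 (adjusted p = 0.318) and -0.10 (adjusted p = 0.586). Astrocyte replicates 1 and 3 were thus at opposite ends of the group for both genes, in opposite order.

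Levels of different genes were compared per exonic length, as TPM, in which counts are divided by length and scaled to the same sum in every library. In astrocytes, Glud1 was the most abundant of the 9, at 274 ± 41.2 TPM (SD, n = 3), followed by Slc1a4 (135 ± 21.1 TPM), Slc38a2 (128 ± 27.2 TPM) and Glul (118 ± 32.9 TPM), which did not differ from one another beyond their spread. Slc1a3 came next at 72.1 ± 17.9 TPM. Slc38a1 (26.6 ± 10.4 TPM), Slc7a11 (20.8 ± 10.3 TPM) and Slc1a5 (17.3 ± 3.48 TPM) were within their spread. Slc1a2 had the lowest mean, at 6.01 ± 7.14 TPM. In astrocyte replicate 3, however, it was at 14.2 TPM, above Slc7a11 at 11.05 TPM. In mKate2- SB28 cells Glud1 (277 ± 44.3 TPM), Slc38a2 (181 ± 25.2 TPM) and Slc1a4 (107 ± 12.8 TPM) led, ahead of Slc7a11 (70.7 ± 16.9 TPM) and Slc1a5 (65.7 ± 3.94 TPM), which were within their spread. Glul (36.3 ± 2.19 TPM) and Slc38a1 (29.7 ± 3.00 TPM) followed, with Slc1a3 at 0.575 ± 0.366 TPM and Slc1a2 at 0.0346 ± 0.0301 TPM. The order in mKate2+ cells was the same, from Glud1 at 272 ± 53.6 TPM to Slc1a2 at 0.0247 ± 0.0214 TPM. It depended in part on the length assumed. The longest basic protein-coding transcript, for example, is 4163 bases for Slc1a3 against 8537 bases of all its exons. With this length, Slc38a2 came next after Glud1 in astrocytes, at 177.5 ± 33.85 TPM. Slc1a3 (109 ± 27.2 TPM), Glul (103 ± 29.0 TPM) and Slc1a4 (99.1 ± 15.35 TPM) followed and were within their spread. In SB28 cells Slc38a1 then came before Glul, at 50.3 ± 3.68 against 30.9 ± 1.19 TPM in mKate2- and 48.9 ± 14.9 against 31.4 ± 1.69 TPM in mKate2+ cells, and Slc7a11 (76.8 and 75.7 TPM) was level with Slc1a4 (76.5 and 73.7 TPM). Slc38a2 was then within the spread of Glud1, at 244.5 ± 29.5 against 245 ± 32.0 TPM in mKate2- and 227 ± 72.0 against 239.9 ± 41.8 TPM in mKate2+ cells.

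**Figure D3:**
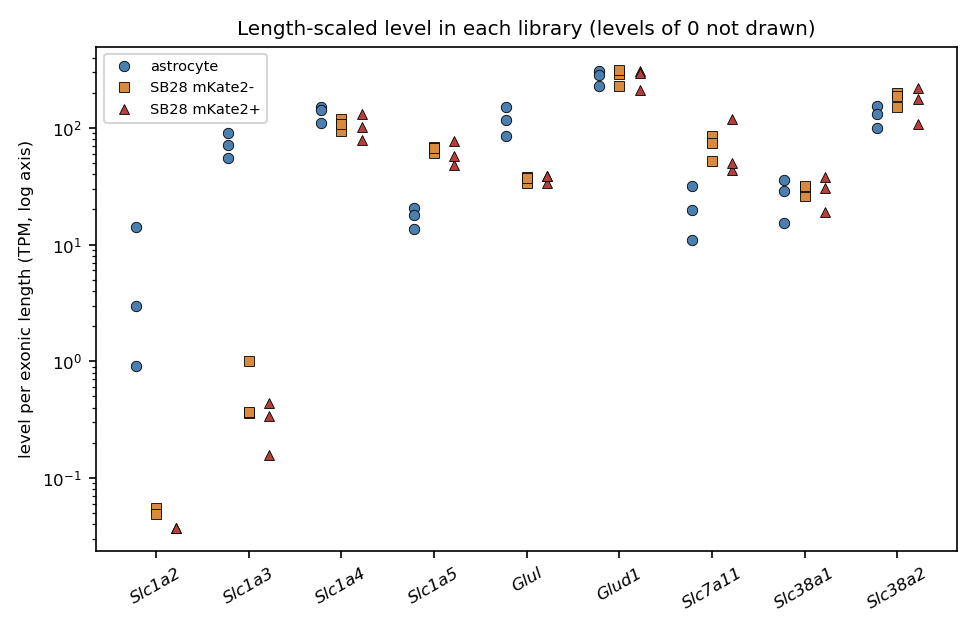
Length-scaled level of each gene in every library (y axis, TPM on a log axis, levels of 0 not drawn) for astrocytes, mKate2- and mKate2+ SB28 cells, with genes on the x axis. By exonic length Glud1 had the highest mean in all 3 populations, and Slc1a3 and Slc1a2 were the genes whose tumor libraries lay furthest below the astrocyte libraries.

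The second comparison asked whether tumor cells that had acquired astrocyte mitochondria differed from those that had not. Of the 9 genes, 8 could be tested, as Slc1a2 was below the filter of 1 CPM in at least 2 libraries. The study's criteria for upregulated genes were a fold change of more than 1.5 with an unadjusted P under 0.05 and more than 50 counts. Here they were applied in both directions, with counts taken as the normalized mean of the 6 libraries. By these, none of the 8 was called. Of all 11854 genes tested 0.363% were called, 0.194% higher and 0.169% lower. Slc1a3, with a mean count of 38.5, was below the count criterion and could not have been called. The smallest unadjusted P value among the 8 was 0.104, for Slc1a3, and 2.03% of all genes had one below 0.05. No gene of the 11854 passed an adjusted P value of 0.05 in edgeR. The 2 populations overlapped for all 8 genes, and they did not overlap for 8.83% of all genes. With 8 genes, neither count tells the group apart from all genes.

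The intervals set how large a difference these libraries leave possible when they are taken as unpaired. Glud1 had a log2 fold change of 0.10 in mKate2+ over mKate2- cells (95% interval -0.09 to 0.28, that is 0.938-fold to 1.22-fold). For Slc1a5 it was -0.0032 (95% interval -0.28 to 0.27), for Slc1a4 0.06 (95% interval -0.19 to 0.31), for Slc38a1 0.05 (95% interval -0.18 to 0.28), for Slc38a2 -0.02 (95% interval -0.29 to 0.26) and for Glul 0.17 (95% interval -0.15 to 0.49). These 6 intervals lay within a fold change of 1.5 in either direction. Glul was highest in mKate2+ replicate 2, and without that library its log2 fold change was 0.0074 (unadjusted p = 0.939). The interval of Slc7a11 was wide, with a log2 fold change of 0.03 (95% interval -0.76 to 0.82, that is 0.590-fold to 1.76-fold), and without mKate2+ replicate 2 it was 0.12 (unadjusted p = 0.730). Slc1a3, at about 1 CPM, had a log2 fold change of -0.78 (95% interval -1.75 to 0.20, unadjusted p = 0.104). That value was -0.26 without mKate2- replicate 3, the library with the most Slc1a3, Olig1 and Olig2, and -0.59 without mKate2+ replicate 2.

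Over the 6 tumor libraries, mKate2+ replicate 1 was the highest for 5 of the 9 genes and mKate2- replicate 3 and mKate2+ replicate 2 the lowest for 3 each, besides both having 0 counts of Slc1a2. Glud1 varied least, by 1.10 times from the lowest to the highest library, and Slc1a4, Slc1a5, Glul, Slc38a1 and Slc38a2 by 1.25 to 1.41 times.

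The rest of the pathway was described with 3 lists written from general knowledge. One held 24 other transporters of glutamate, glutamine and their exchange partners. Of these, 16 could be tested against astrocytes, 3 were higher and 7 lower in mKate2- cells, and 3 were higher and 6 lower in mKate2+ cells, where 11.5% of all genes were higher and 22.4% lower in the former and 12.2% and 22.8% in the latter. The median log2 fold change was -0.52 and -0.55, beside -0.04 and -0.02 for all genes tested. These medians depended on single astrocyte libraries, without which fewer transporters passed the filter. They were -0.22 and -0.12 without astrocyte replicate 2 and -0.32 and -0.28 without astrocyte replicate 3. Slc25a18, a mitochondrial glutamate carrier, had the largest difference in mKate2- cells. It was at 54.8, 29.5 and 35.9 CPM in astrocyte replicates 1 to 3 and at 0.221 to 0.484 CPM in the tumor libraries. On the log2 scale it differed by -7.08 (standard error 0.35, adjusted p = 8.44e-06) in mKate2- and by -6.73 (standard error 0.38, adjusted p = 1.46e-05) in mKate2+ cells, beside -7.04 and -7.80 for Slc1a3. In contrast Slc25a13, the aspartate-glutamate carrier citrin, was at 26.3, 35.0 and 34.7 CPM in astrocytes and 150.2 to 170.0 CPM in tumor cells, 4.93-fold and 5.31-fold higher (adjusted p = 8.83e-06 and 1.51e-05). The amino acid exchangers Slc7a5 (LAT1) and Slc7a6 were also higher. Slc7a5 was at 114, 128 and 168 CPM in astrocytes and 394 to 537 CPM in tumor cells, with log2 fold changes of 1.71 (adjusted p = 7.54e-05) and 1.86 (adjusted p = 0.000115), and Slc7a6 had log2 fold changes of 1.61 and 1.68.

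The other lower transporters were less abundant in astrocytes than Slc25a18 on average. Slc7a7 and Slc7a8, which form exchangers with Slc3a2, were at 4.33 CPM or less in astrocytes and 0.441 CPM or less in tumor cells. Slc38a9, a lysosomal amino acid sensor of the mTORC1 pathway, was at 11.4, 11.0 and 11.2 CPM in astrocytes and 3.84 to 4.93 CPM in tumor cells (log2 fold change -1.24 and -1.39, adjusted p = 0.000556 and 0.000578). Exons of Slc7a7 and Slc38a9 overlap genes on the opposite strand. Slc38a3, the glial glutamine exporter SNAT3, named after its values were seen, was at 2.82, 2.02 and 28.8 CPM in astrocyte replicates 1 to 3 and 0.0255 to 0.235 CPM in tumor cells. Like Slc1a2, it was highest in replicate 3. Its log2 fold changes were -6.38 (adjusted p = 0.00349) and -7.29 (adjusted p = 0.00276), and -4.18 (adjusted p = 0.000307) and -5.11 (adjusted p = 0.000297) without that library. The vesicular transporters Slc17a7 and Slc17a8, also named after their values were seen, were at 2.23 CPM or less in all libraries, and Slc17a8 was lower in mKate2- cells only, a difference between populations that was not tested. Slc1a1, the neuronal glutamate transporter EAAC1, was too low to be tested, at 1.31 CPM or less, and its exons overlap 4430402I18Rik by 2631 bases. Without astrocyte replicate 3, 14 of the 24 genes passed the filter and 3 were higher and 5 lower in each SB28 population.

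**Figure D4:**
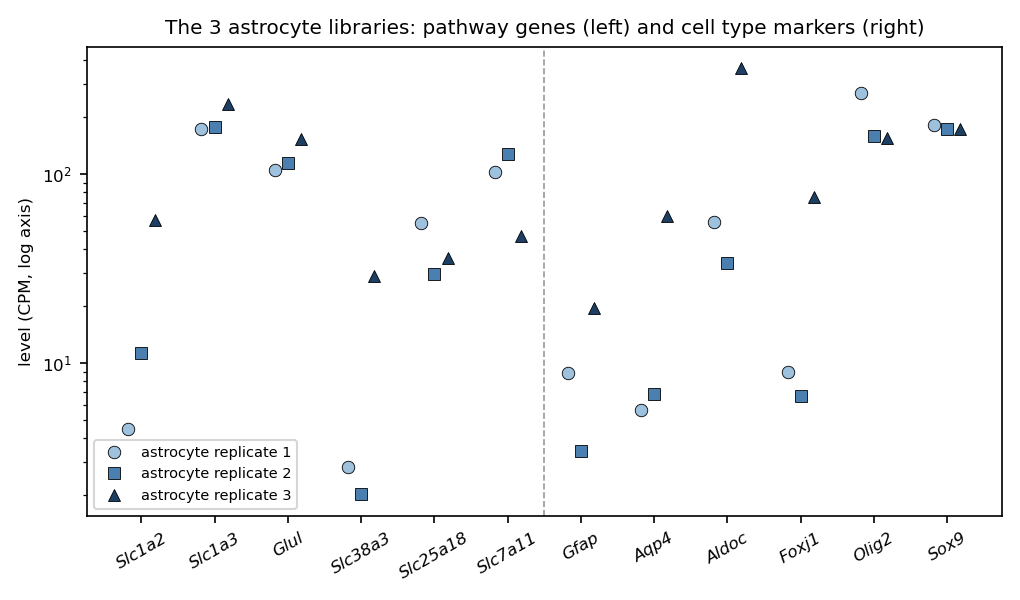
Level (y axis, CPM on a log axis) of 6 pathway genes and 6 cell type markers (x axis, left and right of the dashed line) in the 3 astrocyte libraries. Replicate 3 was highest for Slc1a2 and Slc38a3 and also for Gfap, Aqp4, Aldoc and Foxj1, and lowest for Slc7a11, whereas Sox9 was level in the 3 libraries.

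The second list held 27 enzymes that make or use glutamate and glutamine. Of these, 26 could be tested against astrocytes, and 7 were higher and 5 lower in each SB28 population. The share of all genes was 11.5% higher and 22.4% lower for mKate2- and 12.2% and 22.8% for mKate2+ cells, so that the lower enzymes were no larger a share of their list than of all genes. The median log2 fold change was 0.39 for mKate2- and 0.46 for mKate2+ cells. Gls2, which releases glutamate from glutamine, was rare, at 2.09, 2.35 and 1.91 CPM in astrocytes and 6.67 to 9.60 CPM in tumor cells, with log2 fold changes of 1.93 (adjusted p = 0.000349) and 1.98 (adjusted p = 0.000361). It overlaps Spryd4 on the opposite strand by 97 bases.

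Transaminases, which pass amino groups between glutamate and other compounds, differed in direction. Grouped after the values were seen, Bcat1, Psat1, Gpt2, Got1 and Kyat3 were higher, Abat was lower, and Got2, Gpt, Bcat2, Oat and Kyat1 were not called, in both comparisons. Bcat1, the cytosolic branched-chain transaminase, was at 20.4, 22.3 and 14.6 CPM in astrocytes and 97.3 to 110 CPM in tumor cells, 5.42-fold and 5.83-fold higher (adjusted p = 2.55e-05 and 3.45e-05). Psat1, of serine synthesis, was at 296, 357 and 254 CPM in astrocytes and 1044 to 1225 CPM in tumor cells (log2 fold change 1.91 and 1.99), and the alanine transaminase Gpt2 had log2 fold changes of 1.76 and 1.74. The aspartate transaminase of the cytosol, Got1, was at 104, 95.6 and 66.8 CPM in astrocytes and 248 to 292 CPM in tumor cells (log2 fold change 1.54 and 1.73, adjusted p = 0.000209 and 0.000207). The mitochondrial enzyme Got2 had log2 fold changes of 0.69 (adjusted p = 0.00382) and 0.84 (adjusted p = 0.00188), below the fold threshold. Aldh18a1, which begins proline synthesis from glutamate, was also higher, with 1.79 and 1.85 on the log2 scale. Kyat3 was at 3.88 to 5.18 CPM in astrocytes and 14.5 to 18.1 CPM in tumor cells.

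Lower enzymes were Gad2, Gad1, Abat, Oplah and Aldh4a1. Gad2, which makes the transmitter GABA from glutamate, was at 16.5, 16.3 and 42.1 CPM in astrocytes and 0.229 to 0.809 CPM in tumor cells (log2 fold change -5.57 and -6.07, adjusted p = 8.88e-05 and 7.51e-05). Abat, the GABA transaminase, was at 49.8, 63.5 and 152 CPM in astrocytes and 2.37 to 3.98 CPM in tumor cells (log2 fold change -4.56 and -4.87). Both were highest in astrocyte replicate 3, without which the log2 fold changes were -4.98 and -5.50 for Gad2 and -3.94 and -4.26 for Abat. Oplah, the oxoprolinase of glutathione turnover, had log2 fold changes of -3.20 and -3.42, and Aldh4a1, which returns proline carbon to glutamate, -1.80 and -1.83. Exons of Aldh4a1 share 1595 bases with Gm21969 on the same strand, and Oplah overlaps Exosc4 and Smpd5 on the opposite strand. Gad1, which like Gad2 makes GABA and was named after its values were seen, was at 2.08 CPM or less in all libraries.

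**Figure D5:**
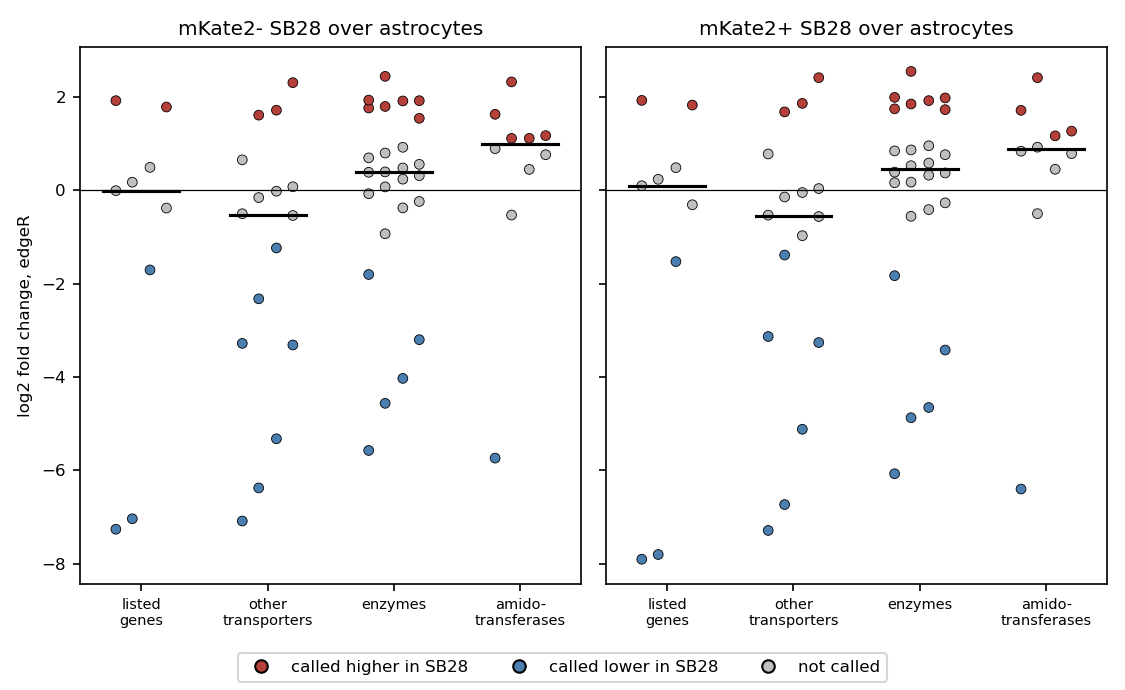
Log2 fold change in edgeR (y axis) of mKate2- (left) and mKate2+ (right) SB28 cells over astrocytes for the 9 genes, other transporters, enzymes and amidotransferases that could be tested (x axis). Each point is a gene, coloured by its call, and black lines are medians, which were -0.52 and -0.55 for the transporters and 1.00 and 0.88 for the amidotransferases. The transporter medians were -0.22 and -0.12 without astrocyte replicate 2.

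Amidotransferases, which move the amide nitrogen of glutamine into nucleotides, amino sugars and asparagine, made up the third list, and all 10 could be tested. In mKate2- cells 5 were higher and 1 lower, and in mKate2+ cells 4 were higher and 1 lower, with a median log2 fold change of 1.00 and 0.88, beside -0.04 and -0.02 for all genes. The shares of all genes called were again 11.5% higher and 22.4% lower for mKate2- and 12.2% and 22.8% for mKate2+ cells. Asns, asparagine synthetase, was at 90.5, 99.9 and 62.2 CPM in astrocyte replicates 1 to 3 and 351 to 479 CPM in tumor cells, 4.99-fold and 5.31-fold higher (adjusted p = 6.25e-05 and 9.76e-05). Cad, which starts pyrimidine synthesis, was at 102, 117 and 120 CPM in astrocytes and 299 to 385 CPM in tumor cells (log2 fold change 1.63 and 1.71). In purine synthesis, Gmps was higher by 1.17 and 1.26 and Ppat by 1.11 and 1.16 on the log2 scale, and Ppat shares 272 exonic bases with Paics on the opposite strand. Gfpt2, which makes glucosamine-6-phosphate, was the lower one, at 8.67, 6.12 and 10.5 CPM in astrocytes and 0.0557 to 0.302 CPM in tumor cells (log2 fold change -5.74 and -6.40).

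Between mKate2+ and mKate2- cells, none of the 10 transporters, 24 enzymes and 9 amidotransferases that could be tested was called, where 0.363% of all genes were. The libraries of the populations did not overlap for 1 transporter, 3 enzymes and 2 amidotransferases, nor for 8.83% of all genes. Median log2 fold changes were 0.05, 0.05 and 0.02, beside 0.0033 for all genes. Of these 43 genes, only the enzyme gene Ggct, named after its value was seen, had an unadjusted P value below 0.05 (log2 fold change 0.44, standard error 0.19, unadjusted p = 0.0497, adjusted p = 0.923). It was at 3.62 to 5.78 CPM in the 6 libraries. An unadjusted P value below 0.05 was found for 2.03% of all genes, so that 1 of 43 is near the background. Without mKate2+ replicate 2 the unadjusted p of Ggct was 0.127. Got1 had a log2 fold change of 0.17 (standard error 0.09, unadjusted p = 0.0797), Got2 of 0.14 (unadjusted p = 0.213) and Asns of 0.08 (unadjusted p = 0.616). The values were 0.04 (unadjusted p = 0.841) for Gls2, 0.12 (unadjusted p = 0.490) for Slc3a2, -0.04 (unadjusted p = 0.769) for Gclc and 0.06 (unadjusted p = 0.621) for Gclm.

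Other genes with the most similar pattern over the 9 libraries were found by Pearson's correlation of log2 CPM over 12727 genes, as a description, since the libraries share their populations. Slc1a3 was closest to Klhl29 (r = 0.9990), Axin2 (r = 0.998) and Svop (r = 0.998), which averaged 37.1, 92.3 and 25.9 CPM in astrocytes and 1.15 CPM or less in each tumor population. Slc7a11 was closest to Gabarapl2 (r = 0.983), Trim54 (r = 0.978) and Plk3 (r = 0.977), and Slc38a1 to Mipol1 (r = 0.988), Vps13c (r = 0.979) and Lemd3 (r = 0.977).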

How the data were processed

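RNA-seq was analysed for 9 libraries, 3 each of astrocytes, mKate2- SB28 and mKate2+ SB28 cells, from the counts per gene that the authors deposited without normalization. Per the submitters' processing notes and the study's methods, reads were trimmed (Trimmomatic 0.36), mapped to GRCm38 with STAR 2.5.2b and counted per gene where unique with featureCounts of Subread 1.5.2. The annotation release and strand setting are not given in the sources used here. The sort gates in the series text give CellTrace Violet to the tumor cells and the methods to the astrocytes, so libraries were assigned by their titles. GENCODE M21 named 49056 of 49315 gene IDs and gave positions and exonic lengths. Depth made counting error small except near 0 counts, and 3 libraries per group limited the precision.

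CPM used total counts, and TPM used exonic length. Each pair of populations was fitted on its 6 libraries in R 4.3.3 with edgeR 4.0.16 (TMM, genes above 1 CPM in at least 2 libraries, quasi-likelihood test, Benjamini-Hochberg adjustment over all genes). Standard errors are the log2 fold change divided by the square root of F, and intervals are 95%. mKate2+ and mKate2- cells were compared with the study's criteria for upregulated genes, applied in both directions (fold change above 1.5, unadjusted P below 0.05, mean normalized count above 50). Tumor cells and astrocytes were compared with an absolute log2 fold change over 1 at an adjusted P under 0.05. The authors' analysis used DESeq2 for the latter, and DESeq2 1.42.0 was an alternative here.

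The genes and lists were chosen with earlier results of these data known. The text names the 9 genes, Gls2, Slc3a2, Slc1a1, Got1, Got2, Gclc, Gclm and Asns, per list up to 4 genes in each direction with the smallest adjusted P values among those called alike in both comparisons with astrocytes, list genes called between mKate2+ and mKate2- cells, and genes alike in pattern to Slc1a3, Slc7a11 and Slc38a1. Of the genes the rule names, 1 is not reported here. Alternatives were DESeq2, RLE size factors, no filter, all 9 libraries in one fit, replicate number as a block, removal of a gene length trend (loess of log2 CPM, span 0.3, prior count 2) and each library left out. Robust loess was taken after ordinary loess was seen to recentre all genes. The fits were also run on simulated data, with no outcome reported here. Of the columns of per-sample values, 0 were left unused.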

Additional observations from a re-analysis of the deposited data

How the results depend on the processing

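The calls of the 9 genes were the same under the alternatives run. Against astrocytes 2 were higher and 3 lower, and between mKate2+ and mKate2- cells 0 were called, in each of the 12 alternatives run per comparison, 6 of which leave out a library. DESeq2, too, called 0 of the 8 between mKate2+ and mKate2- cells. For Slc1a3 the lack of a call says nothing about stability. Its mean count of 38.5 in the main fit was below the count criterion, whatever its fold change and P value. The numbers of all genes called against astrocytes stayed within 1.5 times, and without a filter the median of all genes moved from -0.04 to -0.21 and from -0.02 to -0.19.

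Between mKate2+ and mKate2- cells, the number of all genes called was 23 higher and 20 lower. It was 62 higher with DESeq2, 224 higher and 35 lower without a filter, 44 and 13 with all 9 libraries in one fit, 12 higher with the gene length trend removed, and 13 higher and 33 lower with the replicate block. Leaving out a library gave 6 to 310 higher and 16 to 70 lower genes, with the highest of both without mKate2+ replicate 1, 233 and 36 without mKate2+ replicate 3 and 6 higher without mKate2+ replicate 2. Without mKate2- replicate 1 there were 15 and without mKate2- replicate 2 there were 10 higher genes. The share of calls that were higher, 53.5%, was 74.7% with DESeq2, 86.5% without a filter, 77.2% with all 9 libraries, 37.5% without the length trend and 28.3% with the block. The causes were not tested.

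Per the study's methods the populations were sorted from the same co-cultures, so their libraries may be paired, but the labels do not say which belong together. Same-numbered libraries of the mKate2+ and mKate2- populations had correlations of -0.03, 0.11 and 0.28 of their deviations. Not every library correlated best with its own number, which leaves the pairing unknown. The main fits and their intervals took the libraries as unpaired. The replicate block gave 1593 higher and 2969 lower genes for mKate2- and 1632 and 2966 for mKate2+ cells against astrocytes.

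Values near 0 changed sign. Between mKate2+ and mKate2- cells, the log2 fold change of Slc1a5 was 0.0056 without a filter and 0.0030 with all 9 libraries, and that of Slc38a2 was 0.044 with the length trend removed. Leaving out a library gave a range of -0.015 to 0.13 for Slc1a4, -0.071 to 0.094 for Slc1a5, -0.38 to 0.30 for Slc7a11, -0.047 to 0.12 for Slc38a1 and -0.13 to 0.058 for Slc38a2. For mKate2- cells against astrocytes, Glud1 was 0.044 without a filter and -0.027 to 0.031 with a library left out, and Slc38a1 was -0.044 to 0.40. Slc1a3 ran from -1.03 to -0.26 between mKate2+ and mKate2- cells, with a smallest unadjusted p of 0.0442, and Slc38a1 was 0.19 (unadjusted p = 0.0316) with the length trend removed. List counts, an alternative added after seeing the data, ranged from 4 to 8 lower transporters for mKate2- and 4 to 7 for mKate2+ cells, and 1 enzyme, Ggct, was called higher in mKate2+ cells without mKate2- replicate 2.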
